A study of Mus musculus with 5 samples.

Results

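Rab GTPases are the small membrane-bound switches of vesicle traffic. Bound to GTP, a Rab recruits effectors that move, tether or fuse a vesicle, and bound to GDP it is taken off the membrane. Guanine nucleotide exchange factors (GEFs) switch a Rab on, GTPase-activating proteins (GAPs) switch it off, escort proteins present it for prenylation, and GDP dissociation inhibitors (GDIs) carry it through the cytosol. In the male germ line this traffic is known for building the acrosome, the secretory granule of the sperm head, from Golgi and endosomal vesicles, and for feeding the flagellum.

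The family was taken as every row of the deposited gene table whose symbol is Rab or Rabl followed by a number, which gave 61 genes of 56324 rows. Rows that carried several symbols and pseudogene names were left out by the rule, which removed 1 row, shared by Mia and Rab4b. The genes lie on all 19 autosomes and the X chromosome, which holds 4 of them (Rab9, Rab9b, Rab33a and Rab39b). RNA was measured in germ cells of male C57Bl/6 mice aged 12 weeks, and the labels name no mutation or treatment in either group. There were 3 samples of spermatids, the haploid cells that become sperm, and 2 samples of spermatocytes, the cells in meiosis. Both fractions came from sedimentation at unit gravity, which enriches cells by size and does not purify 1 type. Whether each sample is a separate animal or pool is not in the labels, and the p-values therefore cover the spread among the samples, part or all of which may be technical.

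The deposited values, called normalized counts here, are gene counts that DESeq size factors put on a common scale. Divided by the smallest value of its column, every value was whole, and these multiples, taken as reads here, summed over the gene rows to 62249782, 84361908 and 76907629 in spermatid replicates 1, 2 and 3 and 52784231 and 80384019 in spermatocyte replicates 1 and 2. That the multiples are reads is not certain for 1 of the libraries. All 11 tested spermatid markers were higher in spermatids, and their summed normalized counts were 666767 to 1825238 in spermatids against 22434 and 27060 in spermatocytes. Spermatid replicate 1 stood apart among them, with 583221 for the protamine gene Prm2 against 140587 and 140411 in replicates 2 and 3. Of 11 spermatocyte markers, 7 were lower and 1 was higher in spermatids. Of 12 markers of spermatogonia, the germ cells before meiosis, 5 were higher and 3 lower in spermatids. Their sums were 2670 to 3394 in spermatids against 5487 and 5667 in spermatocytes. All 14 markers of Sertoli cells, the somatic cells that nurse the germ line, were lower in spermatids, and their sum was 2911 to 4034 in spermatids against 72983 and 95428 in spermatocytes. All 9 tested Leydig cell markers were lower too, with sums of 172 to 394 in spermatids against 3353 and 4117 in spermatocytes. Of 14 markers of myoid, endothelial, macrophage and blood cells, 10 were higher in spermatids and 1 was lower, with sums of 2995 to 4306 in spermatids against 726 and 776 in spermatocytes. In bulk RNA, fewer cells of a type and less RNA per cell cannot be told apart.

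Rab genes moved in both directions. Of the 56 genes with a mean of at least 10 normalized counts, 14 were higher and 24 lower in spermatids at an adjusted p under 0.05 (limma on log2 of the value plus 1, Benjamini-Hochberg over all 28370 genes tested). Among all tested genes the shares were 40.6% higher and 36.5% lower, against 25% and 42.9% of the Rab genes. Either call was given to 77.1% of all genes and to 67.9% of the Rab genes, so a call as such does not set the family apart. The median log2 fold change was -0.34 over the Rab genes and 0.07 over all genes. Changes of at least 2-fold were 10 higher and 14 lower, against a background of 33.2% and 28.7%, and changes of at least 4-fold were 7 higher and 6 lower, against 24.6% and 17.6%. Of the 56 genes 6 reached the mean of 10 through spermatids alone, with spermatocyte means below 10, and none did so through spermatocytes alone. These were Rab39, which did not pass, and Rab3c, Rab17, Rab26, Rab27b and Rab37, 5 of the 14 higher calls, for which a difference in this direction was built into the filter. Values of the 2 groups were apart, with no overlap, in 44 of the 56 genes, against 85.8% of all genes. Rows of other genes that overlap a Rab gene and hold at least 10% of its level touched 13 of the 56 (among them Rab10, Rab20, Rab40c and Rab43, at 33.6%, 60.5%, 30.7% and 28.7%), and without all 13 of them 9 of 43 were higher and 19 lower. Of the 24 lower genes 12 were higher in spermatocyte replicate 2 than in replicate 1, with a median ratio of 0.997. Of the 14 Sertoli markers 13 were higher in replicate 2, and of the 12 spermatogonia markers 9 were. What part Sertoli or spermatogonia RNA had in the lower calls was not tested.

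Several higher calls depended on how the libraries were scaled. With all libraries scaled to the same total, the median of all genes moved to -0.57, and 7 Rab genes were higher and 39 lower, against 30.5% and 49.4% of all genes. With quantile normalization it moved to -0.39, and 10 were higher and 36 lower, against 33.8% and 46.5%. At a mean of at least 100, 8 of 42 Rab genes were higher and 22 lower, against 46.0% and 34.9% of all genes. All 24 lower calls were kept under equal totals, quantile normalization and TMM (trimmed mean of M-values) factors, while 7 of the 14 higher calls were kept under all 3. All 3 scalings moved the median of all genes down, with TMM factors from 0.07 to 0.03. Such a shift works against higher calls and not against lower ones, so this contrast was partly set in advance. Higher in every alternative were Rab3d, Rab34 and Rabl2. Rab3c, Rab17, Rab27b and Rab37 were higher wherever they were tested, but they entered the test through spermatids alone and were not tested at a mean of at least 100. Lower in every alternative in which they were tested were 19 genes, among them Rab3a, Rab3b, Rab12, Rab18, Rab24, Rab33b and Rab11b.

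**Figure D1:**
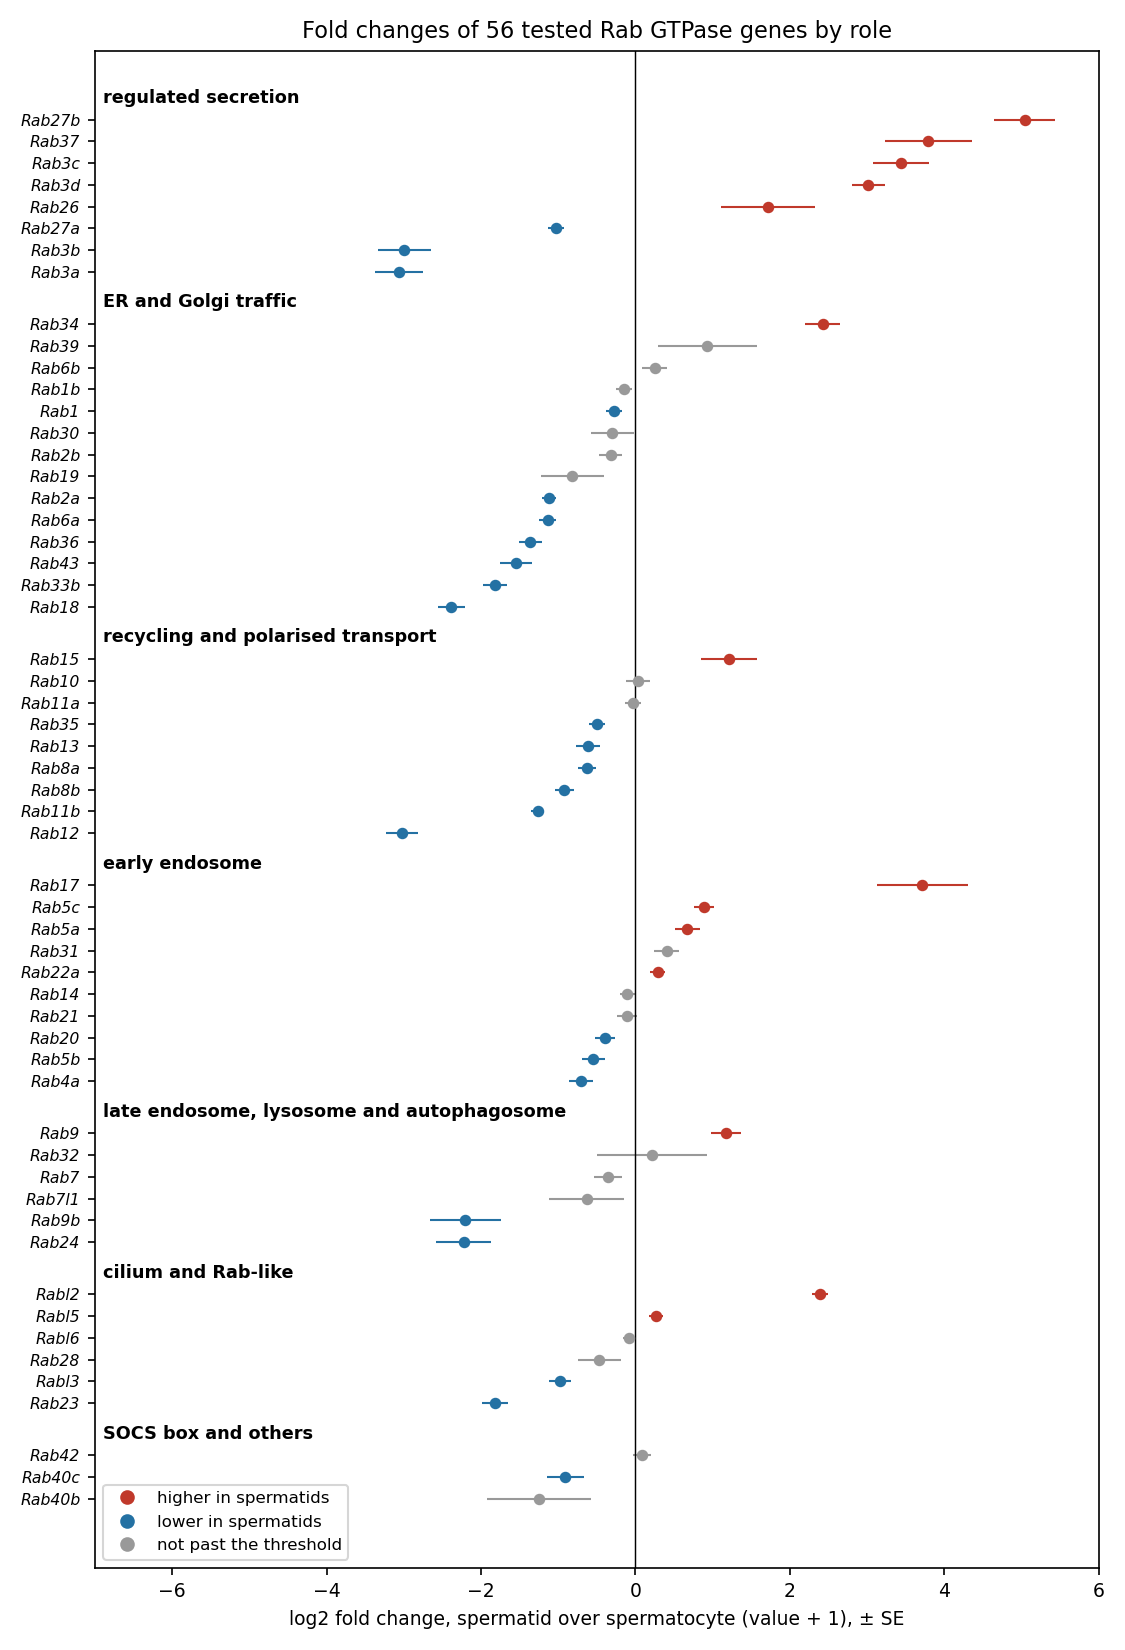
Log2 fold change of spermatids over spermatocytes on the log2(value + 1) scale, with its standard error, for the 56 tested Rab genes grouped by role, for 3 spermatid and 2 spermatocyte samples. The 8 genes of regulated secretion lie on both sides of 0, and 4 of the 5 above it (Rab3c, Rab26, Rab27b and Rab37) reached the minimum mean through spermatids alone, while ER and Golgi genes lie mostly below it and 1 of 14, Rab34, is called higher. The Rab27b point depends on the pseudocount, since both spermatocyte libraries are at 0.

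Rabs of regulated secretion, the granule Rabs, held the widest spread. Of 9 genes 8 were tested, with 5 called higher and 3 lower, beside 40.6% higher and 36.5% lower among all genes. Of the 5 higher genes 4 (Rab3c, Rab26, Rab27b and Rab37) reached the minimum mean through spermatids alone, so these counts are partly set by the filter. The tested genes include both the lowest log2 fold change of the family, that of Rab3a, and a gene with no read in spermatocytes, Rab27b. Within the Rab3 family, which governs calcium-triggered exocytosis and whose member Rab3a acts in the acrosome reaction, the 4 genes parted into pairs. Rab3a had 21.7, 25.8 and 22.0 in spermatids and 158 and 254 in spermatocytes (normalized counts), and Rab3b had 46.5, 40.6 and 26.2 in spermatids and 243 and 368 in spermatocytes. Every spermatid value of both genes lay far below every spermatocyte value. The log2 fold changes were -3.07 ± 0.31 (SE, adjusted p = 0.000114) for Rab3a and -2.99 ± 0.34 (SE, adjusted p = 0.000194) for Rab3b. The opposite pair was Rab3c and Rab3d, of which Rab3d is known from large secretory granules such as the zymogen granule. Rab3d had 1020.2, 826 and 744 in spermatids and 89.4 and 123 in spermatocytes, and Rab3c had 101, 94.2 and 70.2 in spermatids and 5.39 and 9.39 in spermatocytes. Here every spermatid value lay above both spermatocyte values, with log2 fold changes of 3.01 ± 0.21 (SE, adjusted p = 2.05e-05) for Rab3d and 3.44 ± 0.36 (SE, adjusted p = 0.000143) for Rab3c. Mean levels differed 8.11-fold for Rab3d and 12.0-fold for Rab3c, while the spermatocyte mean was 8.90 times the spermatid mean for Rab3a and 8.09 times for Rab3b. The 2 spermatocyte values of Rab3a, Rab3b, Rab3c and Rab3d differed between the replicates, by 1.6, 1.51, 1.74 and 1.38 times, all higher in replicate 2. The Sertoli markers also ran higher in replicate 2, by a median of 1.31 times, and so did the spermatogonia markers, by a median of 1.34 times. The part of either cell type in the Rab3a and Rab3b differences was not tested.

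Set per kilobase of exon, so that genes can be compared, Rab3d stood at 210.2 in spermatids and 25.9 in spermatocytes, Rab3a at 13.0 in spermatids and 115 in spermatocytes, Rab3b at 11.2 in spermatids and 90.7 in spermatocytes and Rab3c at 9.94 in spermatids and 0.831 in spermatocytes (mean normalized counts per kilobase). Rab3d therefore led the Rab3 genes in spermatids and Rab3a in spermatocytes. Rab3a lies at chr8:70754679-70758686 (mm10) inside a crowded stretch where rows for Pde4c, Mpv17l2 and Pik3r2 overlap it, the highest of them at 30 times its mean level, and the strand setting of the counting is not given in the sources used here. Reads of Rab3a and of these neighbours cannot be told apart here. A row that overlaps Rab3c holds 52.6% of the Rab3c level. Rab3d, at chr9:21907492-21918184, overlaps no other row.

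The promoters of the 4 Rab3 genes are shown because these related genes moved in opposite directions. Each sequence holds the 250 bases before the RefSeq start (GRCm38.p6), 5′ to 3′ on the strand of the gene, with capitals for a match to ACGTCA, the core of the cyclic AMP response element that CREB and the germ cell factor CREM bind, on either strand. Matches to GTTGCC, an RFX half-site, to AACNGTT, the core bound by MYB factors, and to CACGTG, an E-box, were also searched on both strands.
Rab3a, chr8:70754453-70754702, plus strand: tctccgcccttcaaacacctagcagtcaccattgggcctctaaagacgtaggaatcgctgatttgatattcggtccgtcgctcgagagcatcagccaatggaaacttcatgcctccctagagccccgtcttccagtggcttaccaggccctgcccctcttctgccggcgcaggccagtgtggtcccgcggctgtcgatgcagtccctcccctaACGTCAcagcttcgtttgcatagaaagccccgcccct
Rab3b, chr4:108878820-108879069, plus strand: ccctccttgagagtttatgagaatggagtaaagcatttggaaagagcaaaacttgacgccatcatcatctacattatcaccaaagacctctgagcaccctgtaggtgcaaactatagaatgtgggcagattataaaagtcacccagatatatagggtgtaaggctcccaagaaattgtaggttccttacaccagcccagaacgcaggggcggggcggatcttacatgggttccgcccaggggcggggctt
Rab3c, chr13:110280207-110280456, minus strand: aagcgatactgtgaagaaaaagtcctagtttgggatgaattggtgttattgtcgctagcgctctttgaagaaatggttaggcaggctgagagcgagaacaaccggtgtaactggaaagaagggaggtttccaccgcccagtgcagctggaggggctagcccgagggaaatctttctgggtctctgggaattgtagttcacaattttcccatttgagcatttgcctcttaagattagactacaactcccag
Rab3d, chr9:21918184-21918433, minus strand: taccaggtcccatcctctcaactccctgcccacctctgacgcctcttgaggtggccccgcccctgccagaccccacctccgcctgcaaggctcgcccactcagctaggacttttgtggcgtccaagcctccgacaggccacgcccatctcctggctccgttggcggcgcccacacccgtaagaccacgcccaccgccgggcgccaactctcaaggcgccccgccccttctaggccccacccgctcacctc
Rab3a holds 1 match to ACGTCA, and the windows of Rab3b, Rab3c and Rab3d hold no match to any of the 4 motifs. The Rab3d window has 69.2% G and C and 18 CpG sites, and the Rab3a window 58.8% and 16, against 48.8% and 6 for Rab3b and 47.6% and 7 for Rab3c. The windows richer in G and C thus belong to Rab3d, called higher, and Rab3a, called lower. Whether base composition has a part in the direction of change was not tested. The RefSeq start of Rab3c lies 791 bases from the end of the deposited row, so this window may not be the start used in these cells. The coding sequences of Rab3b, Rab3c and Rab3d match that of Rab3a at 72.9%, 73.2% and 73.8% of aligned bases (GENCODE vM21).

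Across the 51 Rab genes with a RefSeq promoter, ACGTCA occurred in 7 (13.7%), against 6.47% of 32851 promoters of the same length. These were Rab3a, Rab6a and Rab11b, which were lower in spermatids, Rab5a, which was higher, Rab21 and Rab39, which did not pass the test, and Rab25, which was not tested. GTTGCC occurred in 2 (3.92%, against 10.4%), AACNGTT in 1 (1.96%, against 3.8%) and CACGTG in 4 (7.84%, against 6.02%). Each Rab gene counted by 1 promoter, while the 32851 can hold several starts of a gene. They were also not matched to the Rab windows for base composition. Whether any of these shares differs for the Rab genes was not tested. The promoter of Rab5a is shown as the window with the most matches, 2 to CACGTG and 2 to ACGTCA, which overlap as 1 palindrome on the 2 strands. Its capitals mark both motifs.
Rab5a, chr17:53478984-53479233, plus strand: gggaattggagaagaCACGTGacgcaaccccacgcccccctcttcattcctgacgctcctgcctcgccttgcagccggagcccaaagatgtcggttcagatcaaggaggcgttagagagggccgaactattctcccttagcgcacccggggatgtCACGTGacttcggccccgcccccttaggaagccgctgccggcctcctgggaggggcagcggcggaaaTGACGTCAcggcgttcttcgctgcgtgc

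**Figure D2:**
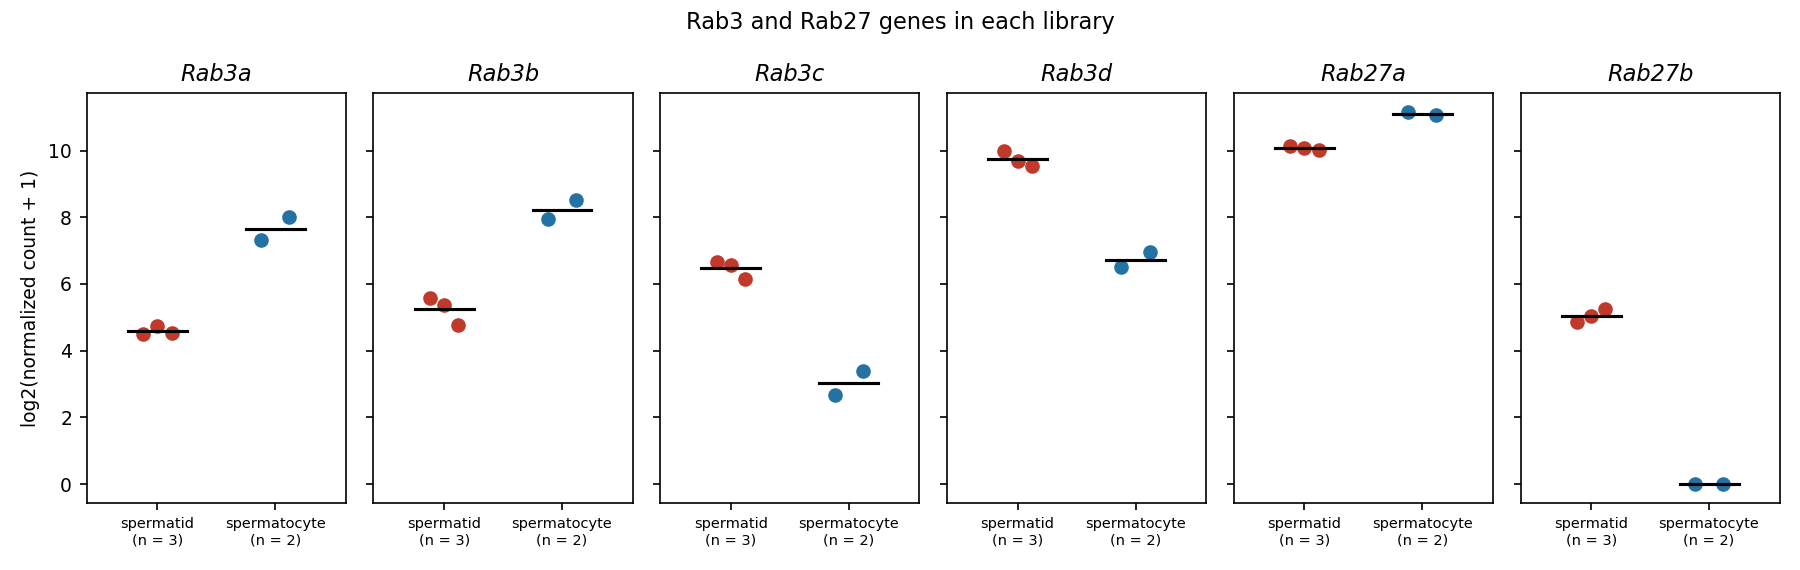
Log2(normalized count + 1) of the Rab3 and Rab27 genes in each of 3 spermatid and 2 spermatocyte libraries, with group means as bars. Spermatid points lie below spermatocyte points for Rab3a, Rab3b and Rab27a and above them for Rab3c, Rab3d and Rab27b, whose spermatocyte libraries are at 0.

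Rab27a and Rab27b, which dock granules at the plasma membrane, also parted. Rab27a had 1132, 1068 and 1039 in spermatids and 2273 and 2138 in spermatocytes, a log2 fold change of -1.03 ± 0.10 (SE, adjusted p = 0.000107). Rab27b had 27.9, 31.7 and 36.7 in spermatids and 0 and 0 in spermatocytes, so it was at least 12.2-fold higher in spermatids, taking 3 reads per library as the floor in spermatocytes. All spermatid values of Rab27b were low, and per kilobase Rab27a stayed the higher gene in both groups, at 341 in spermatids and 696 in spermatocytes against 4.27 for Rab27b in spermatids. A row that overlaps Rab27b holds 50.6% of its level.

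Low genes made up the rest of this set. Rab37, a Rab of mast cell granules, had 15.5, 16.8 and 31.4 in spermatids and 0 and 1.34 in spermatocytes, from 57 and 2 reads, a ratio of 26.4 between the groups with a 95% interval of 6.99 to 223.6 that covers counting error only. An overlapping row of the leukocyte gene Cd300lf holds 97.5% of the Rab37 level, and leukocyte markers such as Csf1r (212, 858 and 672 in spermatids and 20.5 and 18.8 in spermatocytes) and Ptprc (132, 110.0 and 133 in spermatids and 17.2 and 35.5 in spermatocytes) were higher in spermatids as well. Their part in the Rab37 values was not tested. Rab26, linked to secretory granules and synaptic vesicles, had 15.5, 35.7 and 23.1 in spermatids and 3.23 and 12.1 in spermatocytes. Its groups lay close, and its call (log2 fold change 1.72, adjusted p = 0.036) was lost without spermatocyte replicate 1 (0.90, adjusted p = 0.231), without spermatid replicate 2 (1.42, adjusted p = 0.103) and without spermatid replicate 3 (1.73, adjusted p = 0.0794). Equal library totals lost the Rab26 call as well (1.14, adjusted p = 0.145). Rab26 also shares its place with Traf7, whose row is 73.4 times as high. Rab44 had at most 3.35 normalized counts in any library and was not tested.

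Rabs of the ER and Golgi fell more often than they rose. Of 14 tested genes 7 were lower, 1 was higher and 6 did not pass, a share of 50% lower beside the 36.5% of all genes. Rab2a, which acts in traffic between ER and Golgi, had 4447, 4795 and 4379 in spermatids and 10068 and 9643 in spermatocytes, and Rab6a, which drives retrograde Golgi traffic, had 6436, 5349 and 5239 in spermatids and 12476 and 12384 in spermatocytes. Every spermatid value of both genes lay below both spermatocyte values, and the log2 fold change was -1.12 ± 0.09 (SE, adjusted p = 3.60e-05) for Rab2a and -1.14 ± 0.11 (SE, adjusted p = 0.000107) for Rab6a. These are abundant Rabs, at 2128 in spermatids and 4620.4 in spermatocytes for Rab2a and 1654 in spermatids and 3623 in spermatocytes for Rab6a per kilobase. Rab18, which links the ER to lipid droplets, had the largest fall of the set, with 571, 613 and 428 in spermatids and 2629 and 2929 in spermatocytes and a log2 fold change of -2.38 ± 0.18 (SE, adjusted p = 2.59e-05). Rab33b, a Golgi Rab that binds the autophagy protein Atg16l1, had 752, 585 and 546 in spermatids and 2124 and 2269.7 in spermatocytes (log2 fold change -1.82, adjusted p = 5.96e-05). Rab43, a Golgi Rab, had 211, 290.4 and 313 in spermatids and 719.5 and 859.6 in spermatocytes (log2 fold change -1.55, adjusted p = 0.000456). The Rab43 count is uncertain, since 77.0% of its 50-base stretches also occur in transcripts of another gene.

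The most abundant Rab of the family, Rab1b, which carries ER to Golgi traffic, had 11724, 13670.3 and 13811 in spermatids and 14298 and 14648 in spermatocytes and did not pass the test (log2 fold change -0.15, adjusted p = 0.212). Per kilobase it led the family in both groups, at 5752 in spermatids and 6370.2 in spermatocytes. Its relative Rab1 (Rab1a) had 3616, 3699.8 and 3206 in spermatids and 4375 and 4134 in spermatocytes. This small difference passed (log2 fold change -0.28, adjusted p = 0.0398), and the call was lost without either spermatocyte replicate or without spermatid replicate 3, with adjusted p of 0.102 to 0.198. Rab2b had 2139.6, 2104 and 2438 in spermatids and 2429 and 3182 in spermatocytes and did not pass (adjusted p = 0.0765), although without spermatocyte replicate 1 it did (-0.52, adjusted p = 0.0295). Its row overlaps that of Tox4, which is 1.93 times as high. Rab6b, the neuronal form of Rab6, had 364, 312 and 293 in spermatids and 282 and 260.2 in spermatocytes, a log2 fold change of 0.25 that did not pass.

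The exception in this set was Rab34, a Rab that positions lysosomes near the Golgi and takes part in the first steps of cilium formation. Rab34 had 226, 271 and 244 in spermatids and 38.8 and 52.3 in spermatocytes, so every spermatid library held over 4 times the highest spermatocyte value (log2 fold change 2.43 ± 0.23, SE, adjusted p = 8.08e-05). Its relative Rab36 moved the other way, with 509, 390.5 and 466 in spermatids and 1159 and 1174 in spermatocytes (log2 fold change -1.36, adjusted p = 0.000165). Rab19, Rab30 and Rab39 were low, at means of at most 64.9 normalized counts in either group, and did not pass. The X-linked Rab33a and Rab39b were under the minimum mean and were not tested, with at most 10.8 and 3.23 normalized counts in any library.

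Of the Rabs of recycling and polarised transport, 6 of 9 tested genes were lower (66.7%, beside 36.5% of all genes), 1 was higher (11.1%, beside 40.6%) and 2 did not pass the threshold. Rab12, which sends transferrin receptor from recycling endosomes to lysosomes, had 77.5, 104 and 77.6 in spermatids and 669 and 744 in spermatocytes. All spermatid libraries lay far below both spermatocyte libraries, and the log2 fold change of -3.03 ± 0.21 (SE, adjusted p = 1.84e-05) was close to that of Rab3a, the lowest of the family. Rab11b, a recycling endosome Rab, had 5144, 4848 and 4915 in spermatids and 12254 and 11603 in spermatocytes (log2 fold change -1.26 ± 0.08, SE, adjusted p = 1.66e-05). Its relative Rab11a had 6805, 6835 and 5951 in spermatids and 6554 and 6767 in spermatocytes, values that overlapped (log2 fold change -0.03, adjusted p = 0.782). Per kilobase Rab11a stood above Rab11b in both groups, at 2738 in spermatids and 2793 in spermatocytes for Rab11a against 813 in spermatids and 1953 in spermatocytes for Rab11b.

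Rab8a and Rab8b, which carry membrane to the cell surface and the cilium, fell together. Rab8a had 4251, 3719.6 and 3535 in spermatids and 6155 and 5669 in spermatocytes and Rab8b had 1798, 1609 and 1449 in spermatids and 3202 and 2912 in spermatocytes, with no overlap for either and log2 fold changes of -0.63 (adjusted p = 0.00175) for Rab8a and -0.92 (adjusted p = 0.000451) for Rab8b. Rab35, a Rab of endocytic recycling, had 1188, 1331 and 1258 in spermatids and 1789 and 1751 in spermatocytes (log2 fold change -0.49, adjusted p = 0.00411), and Rab13, known from tight junctions, had 276, 241 and 232 in spermatids and 369 and 395 in spermatocytes (log2 fold change -0.62, adjusted p = 0.0103). The Rab13 call was lost without spermatocyte replicate 2 (-0.57, adjusted p = 0.0688). Rab10, which delivers membrane to the cell surface, had 3826, 3347 and 2699 in spermatids and 3216 and 3153 in spermatocytes, and the 2 groups overlapped. Rab15, known from neuronal endosomes, was the gene called higher, with 76.0, 97.1 and 144 in spermatids and 34.5 and 54.3 in spermatocytes (log2 fold change 1.22, adjusted p = 0.0187). That call was lost without spermatocyte replicate 1 (0.90, adjusted p = 0.123), without spermatid replicate 3 (0.97, adjusted p = 0.0572) and with equal library totals (0.58, adjusted p = 0.236). Quantile normalization lost the Rab15 call as well (0.86, adjusted p = 0.0653). The epithelial Rab25 was not tested, with at most 4.19 normalized counts in any library.

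Early endosome Rabs went both ways, with 4 of 10 tested genes higher, 3 lower and 3 not past the threshold. These shares of 40% and 30% are near the 40.6% and 36.5% of all genes, and 1 of the 4 higher genes, Rab17, reached the minimum mean through spermatids alone. The 3 forms of Rab5, the Rab that fuses early endosomes, did not move together. Rab5c had 3669.8, 3656 and 2943 in spermatids and 1832 and 1854 in spermatocytes (log2 fold change 0.89 ± 0.13, SE, adjusted p = 0.0006). Rab5a had 518, 414 and 427 in spermatids and 263 and 303 in spermatocytes (log2 fold change 0.67, adjusted p = 0.0086), while Rab5b had 265, 259 and 274 in spermatids and 406 and 371 in spermatocytes (log2 fold change -0.55, adjusted p = 0.0119). None of the 3 overlapped between the groups. Rab5c was the main form per kilobase in both, at 1560.1 in spermatids and 840.1 in spermatocytes. The calls of Rab5a and Rab5c were lost with equal library totals, where the log2 fold change was 0.03, adjusted p = 0.883 for Rab5a and 0.24, adjusted p = 0.104 for Rab5c. Without spermatocyte replicate 1 the calls of Rab5a (0.57, adjusted p = 0.0654) and Rab5b (-0.48, adjusted p = 0.0811) were lost. With quantile normalization the Rab5a call was lost too (0.24, adjusted p = 0.202), while that of Rab5c was kept. The row of Pp2d1, which overlaps Rab5a, is 12.1 times as high as Rab5a.

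Rab22a, an endosomal Rab of the Rab5 branch, was among the most abundant of the set, with 13419, 11444 and 11516 in spermatids and 9986 and 9835 in spermatocytes. Its small difference (log2 fold change 0.29, adjusted p = 0.0356) turned the other way with equal library totals (-0.36, adjusted p = 0.00515) and with quantile normalization (-0.45, adjusted p = 0.00121), and was lost without either spermatocyte replicate or without spermatid replicate 3. Rab31, its close relative, had 3676, 3958 and 3358 in spermatids and 2319 and 3292 in spermatocytes and did not pass (adjusted p = 0.0571). Without spermatocyte replicate 2 it passed (0.66, adjusted p = 0.0132). Rab17, an epithelial Rab, had 20.2, 18.8 and 29.3 in spermatids and 2.15 and 0 in spermatocytes, from 60 and 2 reads, a ratio of 27.8 with a 95% interval of 7.38 to 235.1. Rab4a, which recycles cargo rapidly to the surface, had 361, 287 and 343 in spermatids and 535 and 536 in spermatocytes (log2 fold change -0.70, adjusted p = 0.00524). Rab20 had 647, 588 and 564 in spermatids and 754 and 819 in spermatocytes (log2 fold change -0.39, adjusted p = 0.0258), a call lost when any library other than spermatid replicate 1 was left out, with adjusted p of 0.0598 to 0.143. Rab14 and Rab21 did not pass, at log2 fold changes of -0.10 and -0.11.

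Of the late endosome, lysosome and autophagosome Rabs, 1 of 6 tested genes was higher and 2 were lower, 16.7% and 33.3% beside 40.6% and 36.5% of all genes. The X-linked relatives Rab9 and Rab9b, Rabs of transport from late endosomes to the trans-Golgi, moved apart. Rab9 had 513, 502 and 438 in spermatids and 179.9 and 253 in spermatocytes (log2 fold change 1.18 ± 0.19, SE, adjusted p = 0.00121), and Rab9b had 15.5, 13.9 and 6.29 in spermatids and 49.5 and 61.0 in spermatocytes (log2 fold change -2.21 ± 0.46, SE, adjusted p = 0.0038). With equal library totals the Rab9 call was lost (0.53, adjusted p = 0.0528). Rab24, which acts in autophagy, had 118, 287 and 209.6 in spermatids and 906 and 899.8 in spermatocytes (log2 fold change -2.23 ± 0.35, SE, adjusted p = 0.00101). The spermatid values of Rab24 were uneven, lowest in replicate 1, and all lay far below both spermatocyte values. The overlapping row of Prelid1 holds 92.4% of its level. Rab7, the main late endosome Rab, had 274, 227 and 212 in spermatids and 289.8 and 314 in spermatocytes and did not pass (log2 fold change -0.35, adjusted p = 0.113). It passed without spermatid replicate 1 (-0.46, adjusted p = 0.0346), and an overlapping row, Gm5577, is 5.46 times as high. Rab7l1 and Rab32 were low, at means of at most 29.5 normalized counts, and Rab38, the partner of Rab32 in melanosome traffic, had no read in any library.

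Of the 6 tested genes of the cilium and Rab-like set, 2 were higher, 2 were lower and 2 did not pass. These shares of 33.3% higher and 33.3% lower stand beside 40.6% and 36.5% of all genes. Rabl2, which enters the sperm tail with the intraflagellar transport machinery and is needed for sperm motility in mice, had 4662, 4288 and 4281 in spermatids and 879 and 801 in spermatocytes. The 3 spermatid libraries lay within a narrow band over 4 times the spermatocyte values, a log2 fold change of 2.39 ± 0.10 (SE, adjusted p = 2.13e-06). Per kilobase Rabl2 stood in place 4 of the family in spermatids, at 2689 in spermatids and 512 in spermatocytes. Rabl5, a subunit of the intraflagellar transport complex also known as Ift22, had 12923, 12035 and 11847 in spermatids and 10502 and 9924 in spermatocytes. It was high in all 5 libraries, and its small difference (log2 fold change 0.26, adjusted p = 0.0272) turned the other way with equal library totals (-0.38, adjusted p = 0.00495) and with quantile normalization (-0.48, adjusted p = 0.000829). It was also lost without either spermatocyte replicate or without spermatid replicate 2.

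Rab23, a ciliary Rab that restrains Hedgehog signalling, fell, with 550.4, 431 and 415 in spermatids and 1749 and 1524 in spermatocytes (log2 fold change -1.82 ± 0.16, SE, adjusted p = 6.40e-05), and so did Rabl3, with 530.2, 533 and 448 in spermatids and 1066 and 920.0 in spermatocytes (log2 fold change -0.98, adjusted p = 0.000711). Rab28, known from photoreceptor cilia, had 6144, 3169.5 and 3351 in spermatids and 5490.2 and 5655 in spermatocytes. Spermatid replicate 1 lay above both spermatocyte libraries and the other spermatid libraries below them, and the gene did not pass (log2 fold change -0.47, adjusted p = 0.162). Without spermatid replicate 1 it did (-0.77, adjusted p = 0.000223). Rabl6 had 5501, 5440.2 and 5765 in spermatids and 6097 and 5667 in spermatocytes, values that overlapped. Among the Rab40 genes, whose SOCS box binds a cullin ubiquitin ligase, Rab40c had 177, 290.4 and 262 in spermatids and 417 and 479 in spermatocytes (log2 fold change -0.91, adjusted p = 0.0116), a call lost without spermatocyte replicate 2 (-0.81, adjusted p = 0.0877). Rab40b was low, at most 23.7 normalized counts, and did not pass (log2 fold change -1.25, adjusted p = 0.132), although it did without spermatid replicate 2 (-1.81, adjusted p = 0.0301). Rab42 did not pass either (log2 fold change 0.09).

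**Figure D3:**
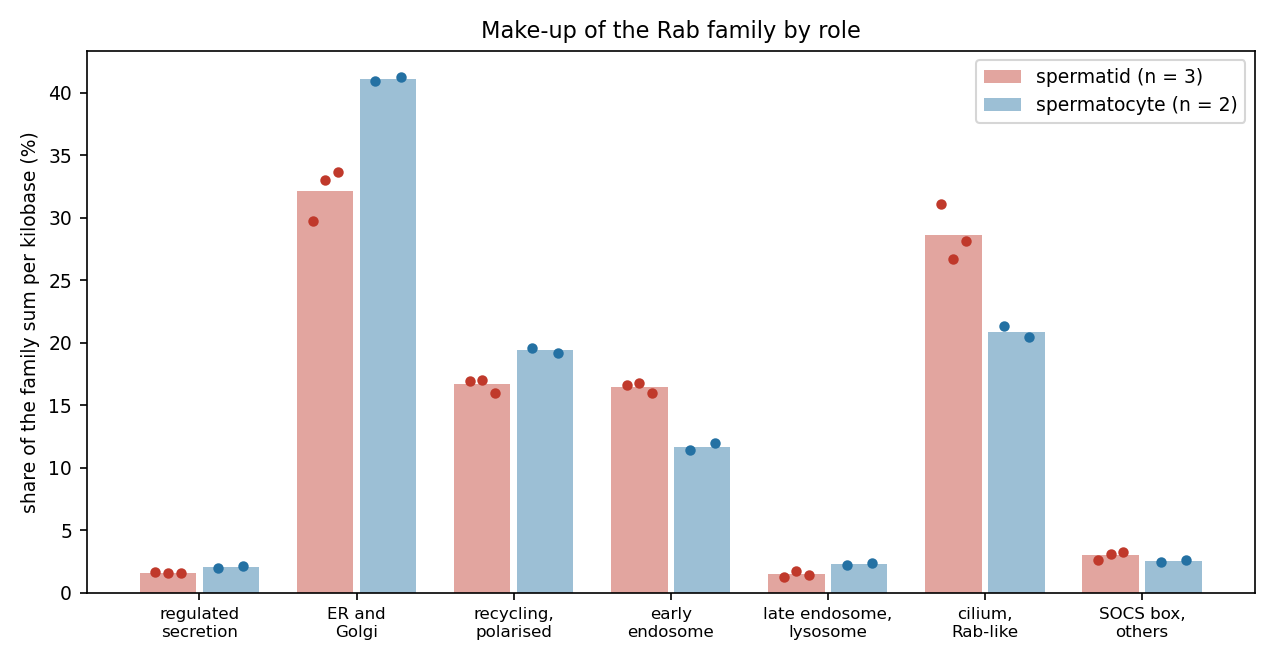
Share of the family's summed normalized counts per kilobase held by each role, as bars for the means of 3 spermatid and 2 spermatocyte libraries and points for each library. ER and Golgi Rabs held 29.7% to 33.7% in spermatids and 40.9% and 41.3% in spermatocytes, and the cilium and Rab-like set held 26.7% to 31.1% in spermatids and 20.5% and 21.4% in spermatocytes, with Rabl2 alone at 6.90% to 7.18% in spermatids and 1.07% and 1.18% in spermatocytes.

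Shares of the family within a library do not depend on the scaling between libraries. The ER and Golgi set held 29.7%, 33.0% and 33.7% of the family sum per kilobase in spermatids and 40.9% and 41.3% in spermatocytes. The cilium and Rab-like set held 31.1%, 26.7% and 28.1% in spermatids and 21.4% and 20.5% in spermatocytes. That difference rested largely on Rabl2, which alone held 7.14%, 6.90% and 7.18% of the family sum in spermatids and 1.18% and 1.07% in spermatocytes. With Rabl2 taken out of the set, an alternative chosen after seeing the data, the other 5 genes held 24.0%, 19.8% and 21.0% in spermatids and 20.2% and 19.4% in spermatocytes, which overlapped, and with Rabl2 taken out of the family sum as well they held 25.8%, 21.3% and 22.6% in spermatids and 20.4% and 19.6% in spermatocytes. Early endosome Rabs held 16.0% to 16.8% in spermatids and 11.4% and 12.0% in spermatocytes. Each of these 3 shares over all its genes lay apart in the 2 groups. So did recycling and polarised transport (16.0% to 17.1% in spermatids, 19.6% and 19.2% in spermatocytes) and regulated secretion (1.55% to 1.65%, against 1.99% and 2.12%). Without Rab27a the secretion share turned the other way, at 0.76%, 0.69% and 0.65% in spermatids and 0.41% and 0.63% in spermatocytes. The late endosome, lysosome and autophagosome share was apart too (1.29% to 1.73%, against 2.22% and 2.35%). Without Rab24 that share turned the other way, at 1.05%, 1.09% and 0.97% in spermatids and 0.54% and 0.70% in spermatocytes. The alternatives without Rab27a and without Rab24 kept the family sum and were chosen after seeing the data. Only the share of the SOCS box set and others overlapped, so being apart does not mark out any of these sets. No single gene left out made the ER and Golgi or the early endosome shares overlap. With 3 against 2 libraries an exact permutation test cannot give a two-sided p below 0.2. Concentration was alike, since the 5 highest genes of a library held 45.9% to 46.3% in spermatids and 45.8% to 46.3% in spermatocytes. By group mean the highest genes per kilobase in spermatids were Rab1b, Rabl5, Rab11a, Rabl2 and Rab28, and in spermatocytes Rab1b, Rab2a, Rab6a, Rab28 and Rabl5. The place of Rab28 in spermatids rested on replicate 1. It had 3545, 1829 and 1933 per kilobase in spermatid replicates 1, 2 and 3, against 2085, 2248 and 2053 for Rab2a. As a share of all normalized counts in a library, the family took 0.120% to 0.131% in spermatids and 0.240% and 0.253% in spermatocytes. These shares also depend on the totals, which were 80600836 to 96511989 in spermatids and 56855924 and 53899393 in spermatocytes. The summed normalized counts of the family differed less, at 105117 to 115739 in spermatids and 136677 and 136240 in spermatocytes.

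Ratios of related genes within a library also need no scaling between libraries, and 19 pairs were set side by side. The groups did not overlap in 14 of the 19, while 80.2% of all 1540 pairs of tested Rab genes did not overlap, so related genes were not set apart by this. In 7 pairs the 2 genes had calls in opposite directions, in 2 both were lower and in 2 both were higher. The opposite pairs include Rab3a with Rab3c and Rab27a with Rab27b, and the pairs with both higher include Rab26 with Rab37. Of these genes Rab3c, Rab27b, Rab26 and Rab37 reached the minimum mean through spermatids alone, so the counts are partly set by the filter. Opposite calls occurred in 21.8% of all 1540 pairs of tested Rab genes, and several of the 19 pairs share a gene, such as Rab3a or a Rab5 form. The log2 ratio of Rab3a to Rab3d was -5.49, -4.95 and -5.02 in spermatids and 0.82 and 1.04 in spermatocytes, and that of Rab3a to Rab3c was -2.16, -1.83 and -1.63 in spermatids and 4.64 and 4.62 in spermatocytes. Both ratios changed sign between the groups. The Rab27a to Rab27b ratio was 5.29, 5.03 and 4.79 in spermatids and 11.15 and 11.06 in spermatocytes, where the spermatocyte value rests on the pseudocount because Rab27b had no read there. For Rab9 to Rab9b it was 4.96, 5.08 and 5.91 in spermatids and 1.84 and 2.03 in spermatocytes, and for Rab34 to Rab36 it was -1.16, -0.53 and -0.93 in spermatids and -4.87 and -4.46 in spermatocytes. After setting levels per kilobase, the leading gene differed between the groups in 2 of the pairs, with Rab3d ahead of Rab3a and Rab34 ahead of Rab36 in spermatids and the reverse in spermatocytes. By contrast the Rab3a to Rab3b ratio was -1.07, -0.64 and -0.24 in spermatids and -0.62 and -0.53 in spermatocytes, values that overlapped, and the Rab5a to Rab5c and Rab1 to Rab1b ratios overlapped too. The smallest two-sided p that an exact permutation test allows for any pair is 0.2.

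**Figure D4:**
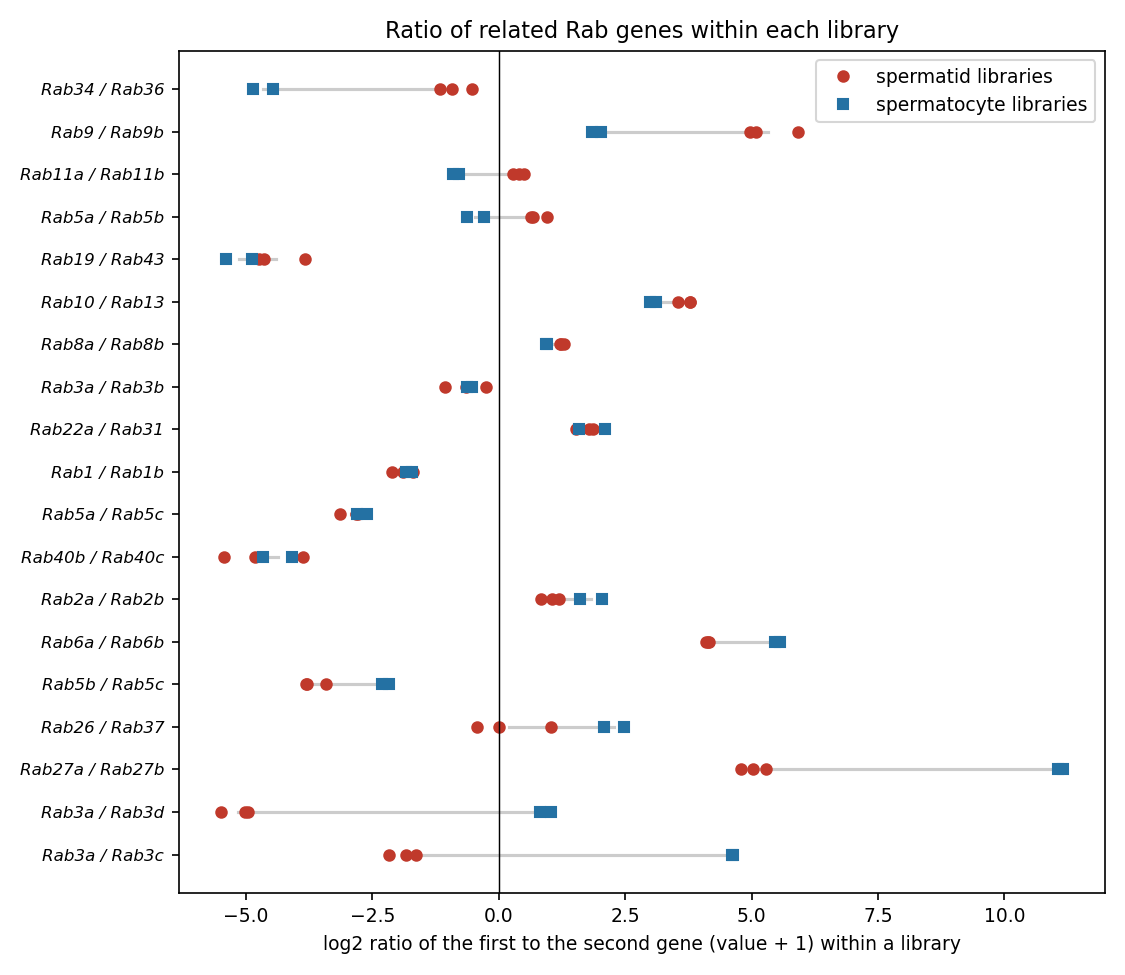
Log2 ratio (value + 1) of the first to the second gene of 19 related Rab pairs within each of 3 spermatid (circles) and 2 spermatocyte (squares) libraries, sorted by the difference between the group means, which the grey lines join. The widest differences are in Rab3a to Rab3c, Rab3a to Rab3d and Rab27a to Rab27b on 1 side and Rab34 to Rab36 and Rab9 to Rab9b on the other. Rab3c and Rab27b reached the minimum mean through spermatids alone.

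The genes that switch and carry Rabs are given from lists chosen by function, each by its counts and its most abundant members. Among GEFs 18 of 44 tested genes were higher and 20 lower, with a median log2 fold change of -0.18. For this and the next 3 lists the shares among all genes are again 40.6% higher and 36.5% lower. The most abundant by far was Rab3il1, also called Grab, an exchange factor that acts on Rab8 and was first described with Rab3a. Rab3il1 had 59227, 48533 and 43386 in spermatids and 785 and 646 in spermatocytes, a 70.4-fold difference of means (log2 fold change 6.13 ± 0.15, SE, adjusted p = 4.81e-07). No spermatid library came near the spermatocyte values. Its relative Rab3ip, the Rab8 exchange factor Rabin8, had 7465, 7592 and 6963 in spermatids and 5166 and 4844 in spermatocytes (log2 fold change 0.55, adjusted p = 0.00113). Thus both exchange factors were called higher while Rab8a and Rab8b were lower. The Rab3ip call was lost, with the sign turned, with equal library totals (-0.09, adjusted p = 0.421) and with quantile normalization (-0.13, adjusted p = 0.199). Hps4, a subunit of the exchange factor for Rab32 and Rab38, had 6622, 6714 and 6700.0 in spermatids and 3747 and 3959 in spermatocytes (log2 fold change 0.79, adjusted p = 0.000135), lost in the same 2 scalings (0.15, adjusted p = 0.285 and 0.15, adjusted p = 0.188). Sbf2, a myotubularin relative with a DENN domain, had 7127, 5862 and 6572 in spermatids and 9176 and 9232 in spermatocytes (log2 fold change -0.50, adjusted p = 0.00411).

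Among GAPs 20 of 39 tested genes were higher and 11 lower, with a median log2 fold change of 0.40. Tbc1d21, a GAP of male germ cells that is needed for the sperm tail in mice, had 19008, 18020.2 and 16538 in spermatids and 262 and 184 in spermatocytes, an 80.0-fold difference of means (log2 fold change 6.34 ± 0.16, SE, adjusted p = 4.81e-07). Tbc1d20, a GAP for Rab1 whose loss in mice stops acrosome formation, had 25009, 11369 and 11570.2 in spermatids and 4496 and 4238 in spermatocytes (log2 fold change 1.77, adjusted p = 0.00245). Replicate 1 stood out among the spermatid libraries for Tbc1d20, and without it the log2 fold change was 1.39, adjusted p = 1.93e-05. Evi5l, a GAP that acts on Rab23, had 25840.5, 25137 and 24181 in spermatids and 11701 and 11035 in spermatocytes (log2 fold change 1.14, adjusted p = 2.45e-05). Tbc1d1, known from glucose transporter traffic in muscle, had 12174, 10624 and 11117 in spermatids and 13927 and 14129.9 in spermatocytes, a small difference (log2 fold change -0.31, adjusted p = 0.0176). The Tbc1d1 call was lost without spermatocyte replicate 1 or 2 or spermatid replicate 2 or 3, with adjusted p of 0.0525 to 0.102.

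In the membrane cycle 6 of 13 genes were higher and 2 lower, with a median of 0.35. Gdi2, a GDP dissociation inhibitor, had 23194, 19044 and 18199.9 in spermatids and 9832 and 9306 in spermatocytes (log2 fold change 1.07 ± 0.12, SE, adjusted p = 0.000208). Every spermatid value lay above both spermatocyte values. Of the escort proteins, Chm had 93.0, 106 and 93.3 in spermatids and 30.2 and 26.2 in spermatocytes (log2 fold change 1.76, adjusted p = 0.000673) and Chml had 1701, 861 and 899 in spermatids and 798 and 925 in spermatocytes, not past the threshold, with spermatid replicate 1 above all other libraries. Overlapping rows hold 24.9% of the Gdi2 level and 25.4% of the Chml level. The 2 subunits of Rab geranylgeranyl transferase, which attaches the lipid, parted as well. Rabggta had 3819, 4709.7 and 4266 in spermatids and 1067 and 1084 in spermatocytes (log2 fold change 1.98 ± 0.12, SE, adjusted p = 9.15e-06), and Rabggtb had 333, 441 and 499 in spermatids and 453 and 470.0 in spermatocytes, values that overlapped (adjusted p = 0.53). Pde6d, which extracts prenylated proteins from membranes, had 9324, 9031 and 9265 in spermatids and 9862 and 9128 in spermatocytes and did not pass. Yipf1, a Golgi protein of the family that binds Rabs, had 3779.9, 4364 and 4127 in spermatids and 687 and 749.6 in spermatocytes (log2 fold change 2.51, adjusted p = 2.39e-06).

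Among effectors 28 of 60 genes were higher and 19 lower, with a median of 0.29. The 4 most abundant differed by less than 2-fold. Gorasp2, which stacks and links Golgi cisternae, had 26713, 26573 and 26581 in spermatids and 17528 and 16292 in spermatocytes (log2 fold change 0.66, adjusted p = 0.000296). Rab11fip5, an effector of Rab11, had 21786, 23447 and 22268 in spermatids and 12285 and 11697 in spermatocytes (log2 fold change 0.91, adjusted p = 7.08e-05). Both calls were lost with equal library totals (0.01, adjusted p = 0.934 for Gorasp2 and 0.26, adjusted p = 0.0701 for Rab11fip5). They were lost with quantile normalization as well (-0.099, adjusted p = 0.343 for Gorasp2 and 0.17, adjusted p = 0.190 for Rab11fip5). Fyco1, an effector of Rab7 that moves autophagosomes, had 24152, 23082 and 24826 in spermatids and 20630.4 and 18507 in spermatocytes, and its call (log2 fold change 0.30, adjusted p = 0.0198) turned the other way with equal library totals (-0.35, adjusted p = 0.0188) and was lost without spermatocyte replicate 2 (0.22, adjusted p = 0.167) or spermatid replicate 3 (0.27, adjusted p = 0.0633). Plekhm2, which ties lysosomes to kinesin, had 16899, 19785 and 19802 in spermatids and 17753 and 16026 in spermatocytes and did not pass (adjusted p = 0.225). Without spermatid replicate 1 it did (0.23, adjusted p = 0.0306), and with equal library totals it passed in the other direction (-0.49, adjusted p = 0.0205).

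**Figure D5:**
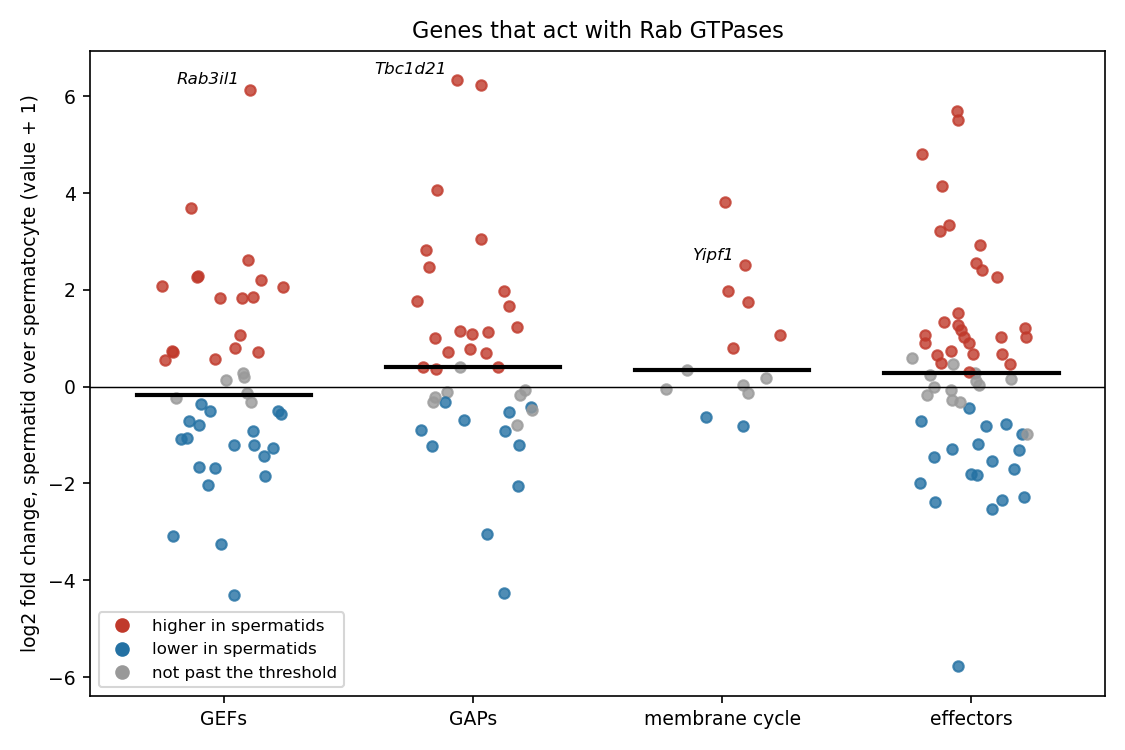
Log2 fold change of spermatids over spermatocytes (value + 1) for tested GEFs (44), GAPs (39), membrane cycle genes (13) and effectors (60), with the median of each list as a bar and sideways scatter for legibility. Points lie on both sides of 0 in every list, and Rab3il1 and Tbc1d21 stand near the top of theirs.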

How the data were processed

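Stranded libraries of polyadenylated RNA were sequenced, per the labels' protocols. Each deposited value is a normalized signal, namely a gene count scaled by the authors with DESeq size factors, per the file headers. The submitters' processing notes list mm10 and the tools STAR 2.4.0, SAMtools, Picard and FastQC without saying what each did. Gene models are those of GenoSplice, per the file headers. How reads were assigned to genes, with which strand setting and with what rule for multiply matching reads, is not given in the sources used here.

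All values of every column were whole multiples of the column's smallest value within 0.001, and these multiples gave the read totals, floors and intervals, which cover counting error only. No count model was run on them, because the step of 1 library (0.991) lies too close to 1 for the multiples to be taken as reads with certainty.

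Genes averaging at least 10 across the 5 libraries entered a limma fit (limma 3.58.1, R 4.3.3) of log2(value + 1) with a trended eBayes prior. P-values were adjusted by Benjamini and Hochberg over 28370 genes and called at 0.05. The log2(value + 1) scale understates the change of low genes. Replicates were numbered in accession order. Every Rab gene was named, and for each regulator list the 4 genes with the highest mean, with Gdi2 and the escort and transferase genes. A gene that this rule names is not reported here. The Rab genes and the lists were chosen with earlier results of these data known. Levels per kilobase used exon lengths from GENCODE vM21. Promoters came from RefSeq on GRCm38.p6. The alternatives were pseudocounts of 0.1 and 10, no filter and a mean of at least 100, equal library totals, TMM factors (edgeR 4.0.16, used for scaling alone) and quantile normalization, no trend, and leaving out each replicate. The fit was tested on simulated data. Plots used matplotlib 3.10.9 and permutation tests scipy 1.17.1 in Python 3.11.15.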

Additional observations from a re-analysis of the deposited data

How the results depend on the processing

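Under these alternatives the direction held for every called Rab gene except Rab22a and Rabl5. With equal library totals 7 Rab genes were higher and 39 lower, GEFs had 11 higher, GAPs 13 higher and 18 lower, membrane cycle genes 5 lower, and effectors 15 higher and 30 lower. Among all genes the shares under this scaling were 30.5% higher and 49.4% lower. With quantile normalization 11 GEFs were higher, 18 GAPs lower, 5 membrane cycle genes lower, and 17 effectors higher and 30 lower. Here the shares among all genes were 33.8% higher and 46.5% lower. Where only 1 direction is given for a list, the other is not shown, so the count does not tell which way the list moved. With a mean of at least 100, which leaves 42 Rab genes to test, 8 were higher and 22 lower, against 46.0% and 34.9% of all genes. Without the eBayes trend 11 Rab genes were higher and 22 lower, against 39.2% and 35.1% of all genes. The calls of Rab1, Rab20, Rab22a, Rab26 and Rabl5 were lost in that setting. Leaving out 1 replicate gave 9 to 14 higher Rab genes, the lowest without spermatocyte replicate 1, and 20 to 26 lower, against 37.5% to 40.3% higher and 28.1% to 38.7% lower among all genes. For the lists the same step gave 17 to 20 higher and 17 to 20 lower GEFs, 15 to 20 higher and 9 to 13 lower GAPs, 6 higher and 2 lower membrane cycle genes each time, and 21 to 27 higher and 15 to 19 lower effectors.

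With equal totals and then with quantile normalization the log2 fold changes turned to -0.61 and -0.55 for Rab10, -0.36 and -0.45 for Rab22a, -0.24 and -0.18 for Rab31, -0.56 and -0.36 for Rab42, -0.40 and -0.18 for Rab6b, -0.38 and -0.48 for Rabl5, -0.094 and -0.13 for Rab3ip, -0.29 and -0.11 for Chml, -0.49 and -0.60 for Plekhm2, and -0.35 and -0.45 for Fyco1. Rab32 turned to -0.38 with equal totals, Gorasp2 to -0.099 with quantile normalization and Rab10 to -0.0043 with TMM factors. Leaving out 1 replicate turned genes that had not passed, over ranges of -0.084 to 0.17 for Rab10, -0.066 to 0.034 for Rab11a, -0.23 to 0.023 for Rab21, -0.37 to 0.83 for Rab32, -0.27 to 0.023 for Rabggtb and -0.099 to 0.012 for Pde6d. The differences between groups in log2 ratio ranged in the same way from -0.28 to 0.14 for Rab3a over Rab3b, -0.38 to 0.15 for Rab22a over Rab31 and -0.76 to 0.023 for Rab40b over Rab40c, and with a pseudocount of 10 they were 0.050 for Rab3a over Rab3b and 0.19 for Rab40b over Rab40c. The cause was not tested.

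No paired analysis was possible because the labels give the groups no shared replicate numbers. Count tests with edgeR and DESeq2 were not run. Genes with a mean below 10 were not tested, and with 2 spermatocyte libraries the spread there is poorly known. Where 1 spermatocyte library is left, it is assumed to vary like the spermatid libraries.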
